A study of Mus musculus with 312 samples.

Results

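Wnt proteins are secreted signals that bind Frizzled receptors together with Lrp5 or Lrp6, and in the mammary gland they act on basal cells, the outer contractile layer of the ducts. Secreted antagonists restrain these signals outside the cell. Wif1 and the secreted Frizzled-related proteins (Sfrp) bind Wnt proteins themselves, whereas Sostdc1 and the Dickkopf proteins Dkk1 and Dkk2 act on the Lrp co-receptors. The genes described here are 8 secreted Wnt antagonists, Dkk1, Dkk2, Dkk3, Sfrp1, Sfrp2, Sfrp4, Wif1 and Sostdc1, taken by symbol from the 27179 gene identifiers of the deposited counts. The set was selected on earlier values of CPM and detection of some of its members in these same cells, so levels and differences between groups are given as a description, with no test.

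RNA was measured in single cells labelled basal from mammary glands of FVB/NJ mice, which received no treatment. Capture used the Fluidigm C1, which holds each cell in a chamber of its own and makes cDNA there. There were 237 cells from adult mice, 112 of them with the mark (2) in their title (marked cells) and 125 without it (unmarked cells), and 75 cells from pregnancy, whose day the labels do not give. Each deposited sample is 1 cell, and neither animals nor capture runs are named. Each group therefore counts as 1 sample, and no difference has a replicate check. Effects of stage cannot be told apart from any effect of animal or of handling.

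Levels are in CPM, the read pairs of a gene per 1e+06 read pairs assigned to nuclear genes other than those of ribosomal proteins. Cells were kept if they had 50000 or more assigned read pairs and 1000 or more detected genes, the study's filter for these cells. It left 81 marked cells, 58 unmarked cells and 71 pregnancy cells, with median depths of 174910, 101320 and 230645 assigned read pairs. The study lists more retained cells than this, both for adult basal cells and for pregnancy, so the cells are not the same sets. At least 6 of 11 core basal genes reached 100 CPM in 127 of the 139 retained adult cells and in 70 of the 71 pregnancy cells. At least 3 of 7 luminal genes did so in 7 adult cells and 1 pregnancy cell. The study's results and its summary of experiments describe pregnancy cells captured in this way as total epithelium. The basal identity of these 71 cells therefore rests on their labels and on these markers.

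The antagonists differed between adult and pregnancy in which genes supplied the RNA. Dkk3 was 9.26-fold lower in pregnancy, Sostdc1 5.98-fold higher and Sfrp2 5.86-fold higher, each as the ratio of mean CPM after 10 CPM was added to both means. Wif1, the member with the highest mean per exon length in each group, was 1.73-fold higher, and Sfrp1 was 1.53-fold lower. Of the 8 genes, 2 were at least 2-fold lower in pregnancy (Dkk3 and Sfrp4) and 2 at least 2-fold higher (Sfrp2 and Sostdc1). Among all 4548 genes whose mean reached 50 CPM in either stage, 13.5% were at least 2-fold lower and 15.6% at least 2-fold higher. Only 5 of the 8 members reached that mean, and of these 1 was 2-fold lower (Dkk3) and 2 were 2-fold higher, while Sfrp4, Dkk1 and Dkk2 did not reach it. The median log2 ratio over the 5 members was 0.79, which is the ratio of Wif1 itself, and over all 8 members it was -0.03. Over those 4548 genes the median was 0.05. With so few members, chosen on these data, the medians show no shift of the set. The Dkk3 difference was under 2-fold against 1 subset of adult cells, the unmarked cells with the lower title numbers.

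Scaled to exon length, Wif1 stood first and Dkk3 second over all adult cells, and Wif1 first and Sostdc1 second in pregnancy. The adult order did not hold in every number range. Dkk3 was not second in the unmarked cells with title numbers 113 to 175. There it averaged 40.4 CPM, below the 61.7 CPM of Sostdc1, whose exons are shorter. Dkk3 stood above Wif1 in unmarked cells numbered 176 to 237, with means of 765 and 195 CPM. The same held in marked cells numbered 57 to 112, with means of 294 and 166 CPM. In both ranges this order remained after scaling to exon lengths of 3357 bases for Dkk3 and 2242 bases for Wif1. The mean of Wif1 was 135 CPM per kb in adult cells and 236 CPM per kb in pregnancy cells. Dkk3 was at 78.5 CPM per kb in adult cells and 5.81 CPM per kb in pregnancy cells. Its share of the 8 genes' summed level per kb was 28.7% in adult cells and 1.35% in pregnancy cells, while that of Sostdc1 was 5.93% and 29.2%. Sfrp2 held 1.73% and 12.1% of this sum.

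**Figure D1:**
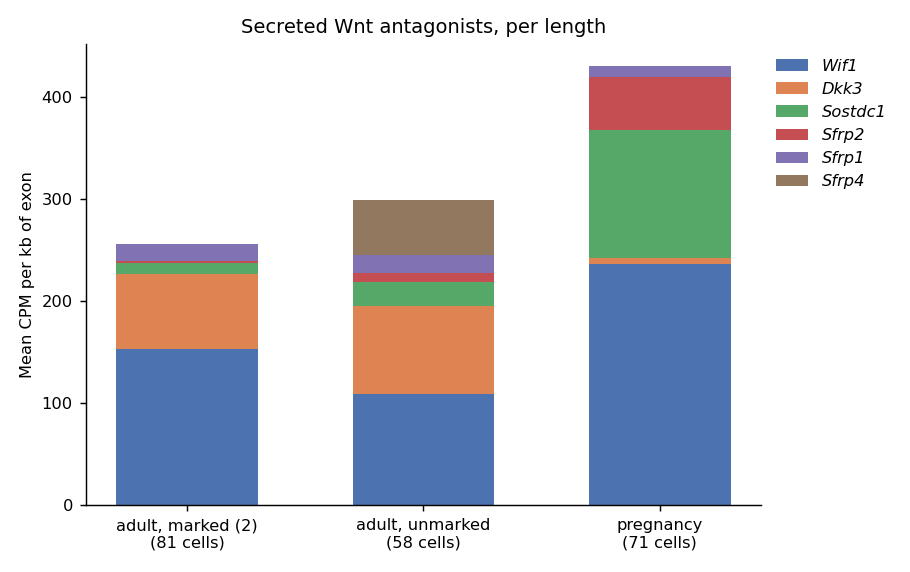
Mean CPM per kb of exon of each secreted Wnt antagonist, stacked, in marked adult, unmarked adult and pregnancy cells; Dkk1 and Dkk2 were below 1 CPM per kb in every group and are not drawn. Wif1 is the lowest and tallest segment in each bar, Dkk3 is next to it in the adult bars, and in the pregnancy bar the segments of Sostdc1 and Sfrp2 stand where Dkk3 stood; the Sfrp4 segment of the unmarked cells comes from 1 cell.

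Dkk3 is the divergent member of the Dickkopf family, a secreted glycoprotein whose effect on Wnt signalling depends on the cell type. The gene lies on the minus strand at chr7:112116019-112159482 of mm10. In the marked adult cells its level ran from 0 through a median of 29.1 CPM to 3044 CPM. The unmarked cells ran from 0 through a median of 17.3 CPM to 4188 CPM. In pregnancy cells the lowest value and the median were 0 and the highest value was 271 CPM. The ranges overlapped at their lower end, and 9 adult cells but no pregnancy cell reached 1000 CPM.

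Dkk3 reached 100 CPM in 28 of 81 marked cells (34.6%, 95% interval 24.3 to 46.0%) and in 15 of 58 unmarked cells (25.9%, 15.3 to 39.0%). In pregnancy it did so in 4 of 71 cells (5.63%, 1.56 to 13.8%), and their levels were 103, 204, 243 and 271 CPM. These intervals are exact Clopper-Pearson intervals for cells drawn at random and, like all intervals here, cover counting error only. After each cell was thinned to 50000 assigned read pairs, at least 1 Dkk3 read was left in 76 of 139 adult cells (54.7%, 46.0 to 63.1%) and 18 of 71 pregnancy cells (25.4%, 15.8 to 37.1%). The cells past 100 CPM had a median of 223 CPM in pregnancy and 359 CPM in adult cells. In all, 5154 Dkk3 read pairs were counted in adult cells and 378 in pregnancy cells. Dkk3 averaged 263 CPM over the adult cells and 19.5 CPM over the pregnancy cells, a log2 ratio of -3.21. Both stages thus held Dkk3, at lower shares and levels in pregnancy. The log2 ratio was -3.11 against the marked cells alone and -3.35 against the unmarked cells alone.

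The unmarked adult cells did not carry Dkk3 evenly along the numbers in their titles, to which the labels give no meaning. Split at the middle of those numbers, a choice made after the values were seen, the 38 retained cells numbered 113 to 175 had a mean of 40.4 CPM and a highest value of 354 CPM. The 20 cells numbered 176 to 237 had a mean of 765 CPM and a highest value of 4188 CPM. Dkk3 reached 100 CPM in 6 of the 38 cells (15.8%, 6.02 to 31.3%) and in 9 of the 20 cells (45.0%, 23.1 to 68.5%). At equal depth, a Dkk3 read was left in 15 of the 38 earlier cells (39.5%, 24.0 to 56.6%) and 16 of the 20 later cells (80.0%, 56.3 to 94.3%). Without its highest cell, the later-numbered set still had a mean of 584 CPM. Against the cells numbered 113 to 175 alone, Dkk3 in pregnancy had a log2 ratio of -0.77, under 2-fold, whereas against those numbered 176 to 237 the ratio was -4.71. All 20 later cells but 31 of the 38 earlier cells carried at least 6 core basal genes, and the part of this difference in the Dkk3 result was not tested. The marked cells, split in the same way, had mean Dkk3 levels of 191 and 294 CPM, and the pregnancy cells 19.6 and 19.4 CPM.

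**Figure D2:**
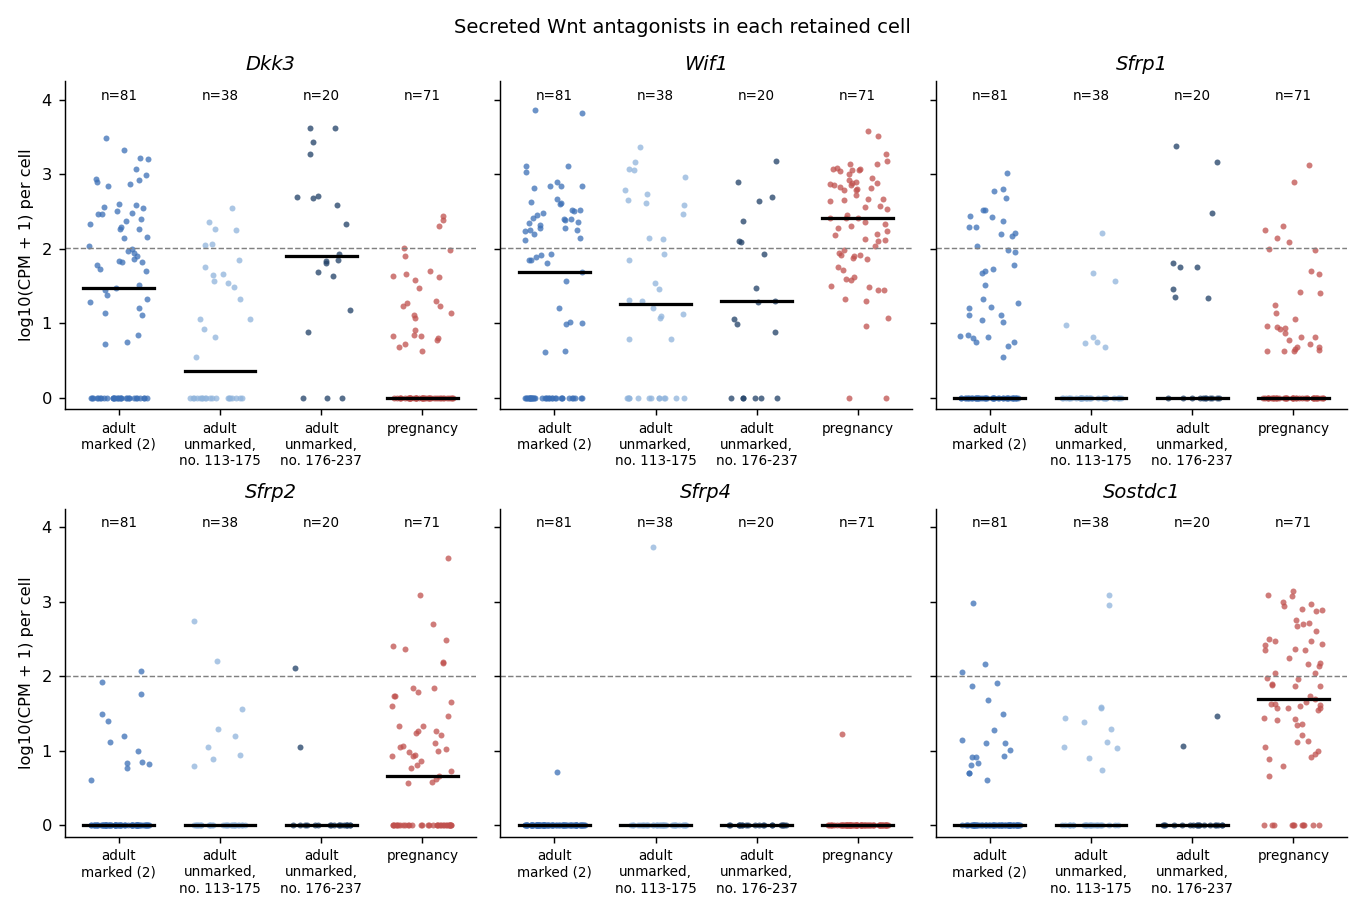
Each point is 1 retained cell, with its level as log10(CPM + 1) on the vertical axis, the black bar the median of the cells, and the dashed line 100 CPM; unmarked adult cells are drawn in the 2 number ranges. Dkk3 points lie above the line in all 3 adult columns and least often in pregnancy, Wif1 and Sostdc1 points crowd upward in pregnancy, and Sfrp4 has a single high cell.

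A few cells carried much of the adult Dkk3 RNA. The 5 highest adult cells held 44.1% of the summed CPM, and the highest were unmarked cells 221 (4188 CPM) and 192 (4121 CPM) and marked cell 88 (3044 CPM). These 3 cells carried 9 or 10 of the 11 core basal genes and no fibroblast, pericyte, endothelial or immune gene at 100 CPM. Each also carried 1 luminal gene at that level. All 43 adult cells with at least 100 CPM of Dkk3 carried 5 or more core basal genes, and none of them carried 3 or more genes of the fibroblast, pericyte, endothelial, immune or Schwann lists. Only 1 of them, marked cell 89, carried 3 luminal genes. These traits were common in the retained adult cells and are not particular to those with Dkk3. Of all 139, 127 carried 6 or more core basal genes and 7 carried 3 or more luminal genes. At least 3 fibroblast, pericyte or immune genes were carried by 3, 2 and 1 of the 139, and at least 3 endothelial or Schwann genes by 0. In the unmarked cells the Spearman correlation of Dkk3 with the number of core basal genes was 0.46 over 58 cells, and in marked cells it was 0.19 over 81 cells. Each point is 1 cell, the cells differ in depth, and the correlation of Dkk3 with depth was -0.25 and -0.07. The 0.46 pools unmarked cells numbered 113 to 175 and 176 to 237. Their mean Dkk3 was 40.4 and 765 CPM, and their median number of core basal genes was 8 and 10. The correlation within each range was not computed.

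Wif1, Wnt inhibitory factor 1, is a secreted protein that binds Wnt ligands and keeps them from their receptors. It lies on the plus strand at chr10:121034004-121100642 of mm10. The bases just before its RefSeq start (GRCm38.p6, plus strand, chr10:121033754-121033953) are shown with those before Dkk1 (minus strand, chr19:30549547-30549746), since Wif1 had the highest mean per exon length of the members in each group and Dkk1 had no read in pregnancy. Capitals mark CAAAG or its reverse complement CTTTG, the core letters of the site bound by TCF/LEF factors, through which Wnt signals act on genes.
Wif1: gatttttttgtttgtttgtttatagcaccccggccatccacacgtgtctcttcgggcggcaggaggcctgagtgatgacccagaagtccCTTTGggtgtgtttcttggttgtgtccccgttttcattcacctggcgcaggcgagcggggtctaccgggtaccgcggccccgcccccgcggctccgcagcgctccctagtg
Dkk1: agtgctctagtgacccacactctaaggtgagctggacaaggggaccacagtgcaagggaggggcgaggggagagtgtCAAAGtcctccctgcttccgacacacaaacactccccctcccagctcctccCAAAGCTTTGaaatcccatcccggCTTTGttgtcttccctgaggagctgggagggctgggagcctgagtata
The Wif1 window holds 1 such match and the Dkk1 window 4, 2 of which adjoin each other. Of 32851 promoter windows of 200 bases searched on both strands, 42.3% hold at least 1 match, so these letters are common. The windows run from 250 to 51 bases before each start, and 4 of the 8 genes had an entry in the table of promoters. Of those not shown, Dkk2, which also had no read in pregnancy, has 1 match and Sfrp2 has 0. A match describes letters only and is no measure of factor binding.

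Wif1 was detected in most pregnancy cells. Its level in pregnancy ran from 0 through a median of 256 CPM to 3773 CPM. In marked adult cells it ran from 0 through a median of 47.0 CPM to 7367 CPM, and in unmarked cells from 0 through 18.6 CPM to 2344 CPM. The single highest cells were thus adult, while the middle of the pregnancy cells lay above that of both adult sets. Wif1 reached 100 CPM in 49 of 71 pregnancy cells (69.0%, 56.9 to 79.5%) and in 54 of 139 adult cells (38.8%, 30.7 to 47.5%). At equal depth, at least 1 read was found in 67 of 71 pregnancy cells (94.4%, 86.2 to 98.4%) and in 76 of 139 adult cells (54.7%, 46.0 to 63.1%).

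Wif1 averaged 530.1 CPM over pregnancy cells and 303 CPM over adult cells, a log2 ratio of 0.79. Against marked cells the log2 ratio was 0.61, and against unmarked cells 1.08, past 2-fold, where 19.7% of 4694 genes were at least 2-fold higher. The mean of log2(CPM + 10) over cells, in which single high cells weigh less, differed by 2.09 between pregnancy and adult cells. In the adult set, marked cells 28 (7367 CPM) and 33 (6570 CPM) stood far above the rest, and the 5 highest adult cells held 45.7% of the summed Wif1 level. Both of these cells carry numbers up to 56, and marked cells numbered 1 to 56 had a mean of 536 CPM against 166 CPM in those numbered 57 to 112. The log2 ratio of pregnancy was -0.016 against the former and 1.62 against the latter, so the mean of Wif1 in pregnancy was not above that of every adult subset. Among cells past 100 CPM, the median was 611 CPM in pregnancy and 392 CPM in adult cells.

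**Figure D3:**
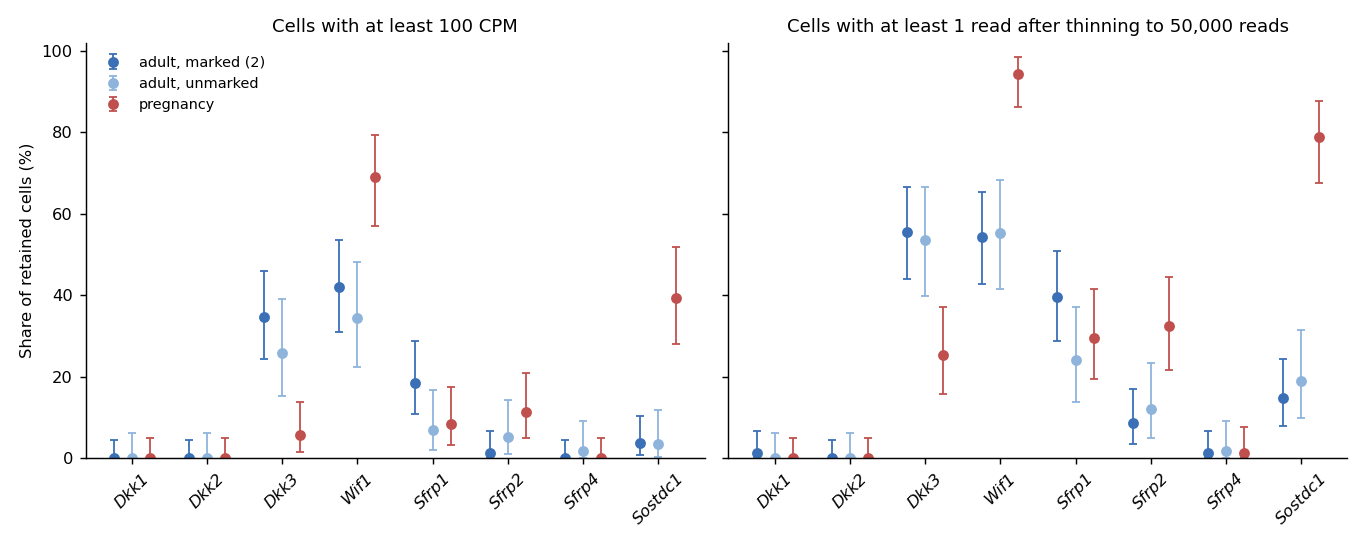
Share of retained cells, in percent, with each antagonist at 100 CPM or more (left) and with at least 1 read after every cell was thinned to 50000 assigned read pairs (right), for marked adult, unmarked adult and pregnancy cells; bars are exact 95% Clopper-Pearson intervals, which cover counting error only. In both panels the pregnancy share is below both adult shares for Dkk3 and above them for Wif1 and Sostdc1. For Sfrp1 it lies between them. Unmarked cells numbered 113 to 175 alone had Dkk3 at 100 CPM in 15.8% (6.02 to 31.3%), an interval that overlaps that of pregnancy.

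Sostdc1, a secreted protein that binds Lrp co-receptors and also BMP ligands, was detected in few adult cells and in many pregnancy cells. It lies on the plus strand at chr12:36314169-36318452 of mm10. The median was 0 in both adult sets, with highest values of 968 CPM in marked and 1249 CPM in unmarked cells. In pregnancy cells it ran from 0 through a median of 49.0 CPM to 1405 CPM. The ranges overlapped throughout, and the middle of the pregnancy cells was above that of the adult cells.

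Sostdc1 reached 100 CPM in 28 of 71 pregnancy cells (39.4%, 28.0 to 51.7%) and in 5 of 139 adult cells (3.60%, 1.18 to 8.19%). At equal depth it had a read in 56 of 71 pregnancy cells (78.9%, 67.6 to 87.7%) and in 23 of 139 adult cells (16.5%, 10.8 to 23.8%). Its mean over pregnancy cells was 219.9 CPM and over adult cells 28.4 CPM, a log2 ratio of 2.58, with 2.97 against marked and 2.17 against unmarked cells. The highest cell held 9.00% of the summed level in pregnancy and 31.6% in adult cells, and the 5 highest held 37.1% and 85.6%. Unmarked cell 126 (1249 CPM) carried 1 core basal gene and the fibroblast genes Col1a2 and Col3a1, unmarked cell 158 (909 CPM) carried 9 core basal genes and 10 of 14 proliferation genes, and marked cell 58 was at 968 CPM. All 28 pregnancy cells past 100 CPM carried at least 7 core basal genes, and 2 of them carried 3 or more fibroblast genes, among them the highest, cell 44 (1405 CPM), with Col3a1, Pdgfra and Dcn.

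The Sfrp family binds Wnt proteins through a domain like that of Frizzled receptors. Sfrp1, at chr8:23411383-23449632 on the plus strand of mm10, had a median of 0 in marked, unmarked and pregnancy cells. Its highest values were 1026 CPM in marked cells, 2388 CPM in unmarked cells and 1311 CPM in pregnancy cells. It reached 100 CPM in 15 of 81 marked cells (18.5%, 10.8 to 28.7%), 4 of 58 unmarked cells (6.90%, 1.91 to 16.7%) and 6 of 71 pregnancy cells (8.45%, 3.16 to 17.5%). These intervals overlap, and so do the shares at equal depth, 33.1% of adult cells (25.4 to 41.6%) and 29.6% of pregnancy cells (19.3 to 41.6%).

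Sfrp1 averaged 74.3 CPM over adult cells and 45.0 CPM over pregnancy cells, a log2 ratio of -0.62. A few cells set these means, as the highest unmarked cell held 51.5% of the Sfrp1 level of its set and the highest pregnancy cell 41.1% of its group. Like Dkk3, Sfrp1 was uneven along the numbers of the unmarked cells, with a mean of 7.09 CPM in those numbered 113 to 175 and 218 CPM in those numbered 176 to 237, or 104 CPM there without the highest cell. Against the earlier-numbered cells alone the log2 ratio of pregnancy was 1.69, and against the later-numbered cells -2.06, so the direction of the Sfrp1 difference depended on which adult cells were taken.

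Sfrp2, at chr3:83765750-83774314 on the plus strand, was low in most cells of both stages. In pregnancy cells it ran from 0 through a median of 3.55 CPM to 3916 CPM, and the median was 0 in adult cells, with a highest value of 548 CPM. It reached 100 CPM in 8 of 71 pregnancy cells (11.3%, 4.99 to 21.0%) and 4 of 139 adult cells (2.88%, 0.790 to 7.20%). At equal depth it had a read in 23 pregnancy cells (32.4%, 21.8 to 44.5%) and 14 adult cells (10.1%, 5.62 to 16.3%). The difference was therefore one of how many cells held any Sfrp2 read as well as of a few high cells.

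Sfrp2 averaged 104 CPM over pregnancy cells and 9.47 CPM over adult cells, a log2 ratio of 2.55. Pregnancy cell 70, at 3916 CPM with 9 core basal genes, held 53.0% of the pregnancy sum. Without the highest cell of each group the means were 49.6 and 5.57 CPM and the log2 ratio 1.94. Of the 4 adult cells past 100 CPM, unmarked cell 157 (159 CPM) carried 6 of 8 fibroblast genes and no core basal gene. Of the 8 pregnancy cells, 1 carried 3 fibroblast genes and all carried at least 7 core basal genes.

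Sfrp4, at chr13:19623175-19632825 on the plus strand, came from 1 cell. Unmarked adult cell 151 had 5423 CPM of Sfrp4, 613 of the 614 Sfrp4 read pairs in adult cells. That cell carried 8 core basal genes together with the fibroblast genes Col1a1, Col3a1, Dcn, Lum, Dpt and Pi16 at 100 CPM. The other reads were 1 in a marked cell and 2 in a pregnancy cell. The log2 ratio of -2.26 between pregnancy and adult cells therefore describes that cell, and it was 0.025 against marked cells. The difference of 3.36 between unmarked and marked cells, where 18.9% of 4578 genes were at least 2-fold higher, rests on it too and was the only one of the 8 past 2-fold.

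Dkk1 and Dkk2, which bind Lrp co-receptors and the Kremen proteins, were almost without reads. Dkk1 (chr19:30545876-30549496, minus strand) had 12 read pairs in 1 marked cell and none in any other retained cell. Dkk2 (chr3:132085266-132180304, plus strand) had 1 read pair in 1 unmarked cell. In pregnancy, 0 of 71 cells had a read of either gene, which allows a share of cells with a read of up to 4.23%.

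**Figure D4:**
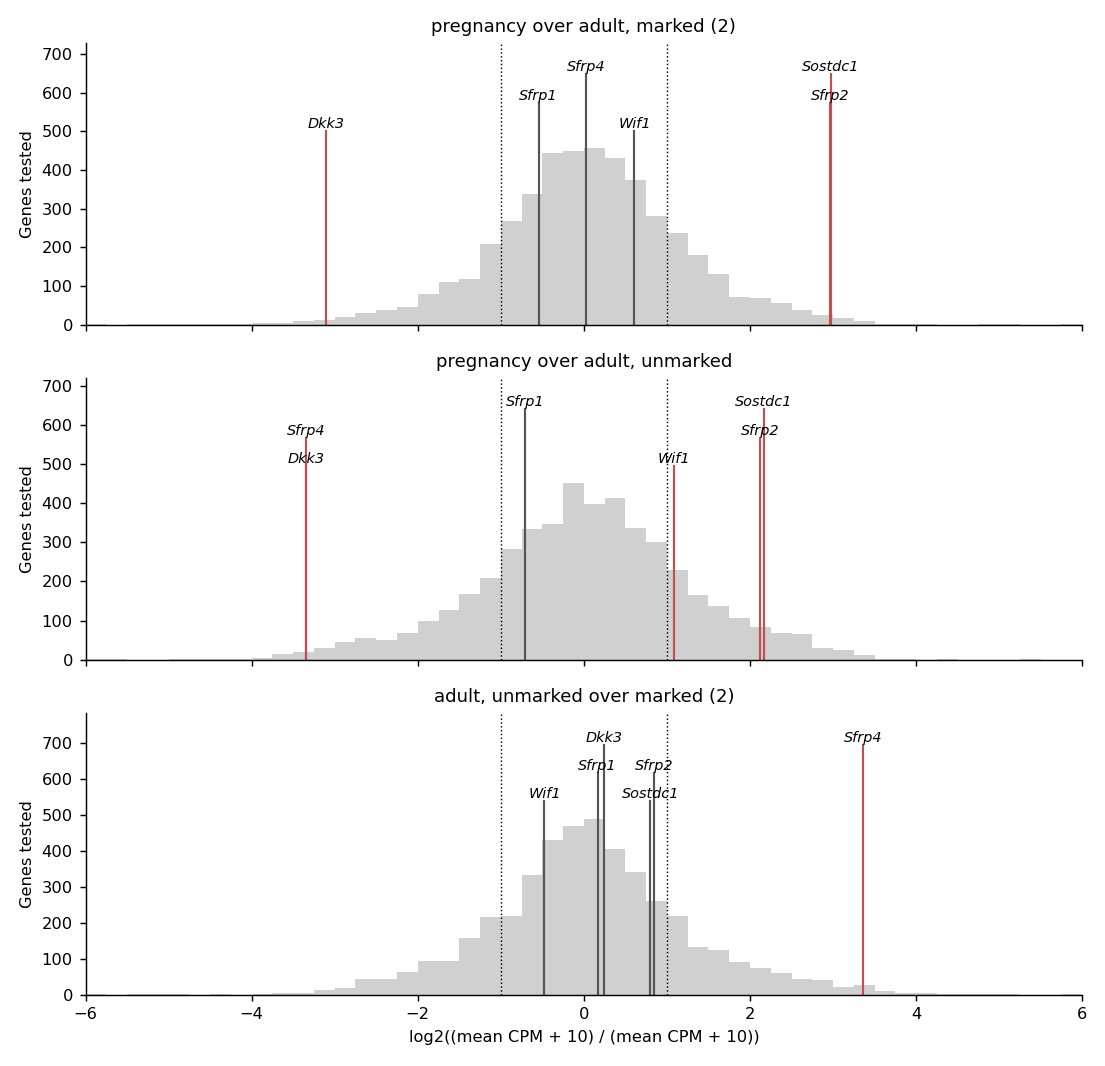
Grey bars count genes whose mean reached 50 CPM in either group of a comparison by their log2 ratio of mean CPM after adding 10 CPM, for pregnancy over marked adult, pregnancy over unmarked adult, and unmarked over marked adult cells; lines place the 6 antagonists other than Dkk1 and Dkk2, red where past 2-fold (dotted lines). In both upper panels Dkk3 lies beyond -3 and Sfrp2 and Sostdc1 beyond 2, and in the lowest panel only Sfrp4, from 1 cell, lies past 2-fold.

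Many cells held more than 1 antagonist. At equal depth the median adult cell held reads of 2 members and the median pregnancy cell reads of 3. At least 2 of the 8 reached 100 CPM in 29 of 139 adult cells (20.9%, 14.4 to 28.6%) and in 28 of 71 pregnancy cells (39.4%, 28.0 to 51.7%). No member reached it in 46 adult cells (33.1%, 25.4 to 41.6%) and 12 pregnancy cells (16.9%, 9.05 to 27.7%). The summed level of the 8 genes had a median of 319.5 CPM in adult cells and 732 CPM in pregnancy cells. Wif1 reached 100 CPM in 20 of the 43 adult cells with Dkk3 at that level (46.5%, 31.2 to 62.3%) and in 34 of the 96 others (35.4%, 25.9 to 45.8%). The Spearman correlation of Dkk3 and Wif1 was 0.07 over 139 adult cells and 0.02 over 71 pregnancy cells. In pregnancy 21 of the 28 cells with Sostdc1 also had Wif1 at 100 CPM, and the correlation of this pair was 0.02 over 71 cells.

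Genes with the pattern most like that of a member were sought where the member reached 100 CPM in at least 50% of the retained cells of a group, which was the case for Wif1 in pregnancy alone. Among 6668 genes with a read in at least 25% of the 71 cells, the highest Spearman correlations with Wif1 were those of Fbln2 (0.42), Dsp (0.39), Kcnj13 (0.38), Mat2a (0.38) and Hsp90b1 (0.35). Of all 6668 genes 99% were below 0.27. Fbln2 encodes a matrix protein and Dsp the desmosomal protein desmoplakin. In marked and unmarked adult cells the correlation of Wif1 with Fbln2 was 0.18 and 0.32, and with Dsp -0.04 and 0.31.

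The same search for Dkk3 was added after its values were seen. In marked cells the highest were Dusp1 (0.44) and Egfr (0.41) over 81 cells, and in unmarked cells Fhod3 and Scn7a (both 0.60) over 58 cells. Dusp1 encodes a stress-induced phosphatase and Egfr a growth factor receptor. In the other adult set these correlations were lower, 0.24 for Dusp1, 0.12 for Egfr, 0.29 for Fhod3 and 0.28 for Scn7a. For Sostdc1 in pregnancy cells the highest was Fmod (0.46), a small matrix proteoglycan, which was at -0.06 in marked and 0.10 in unmarked cells. All of these are descriptions over the cells of 1 group, whose depths differ. The 58 unmarked cells also pool the numbers 113 to 175 and 176 to 237, where Dkk3 averaged 40.4 and 765 CPM. A gene that differs between these ranges would correlate with Dkk3, and correlations within each range were not computed.

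Other Wnt pathway genes were taken from fixed lists, and those whose mean reached 50 CPM in a group are given. Of 12 other extracellular modulators, 2 had this level, and neither differed 2-fold between pregnancy and adult cells. These were Igfbp4 (83.6 CPM in adult and 112 CPM in pregnancy cells) and Trabd2b (38.3 and 61.2 CPM), a membrane protease that cuts Wnt proteins. Of the 5 partners through which the antagonists act, the co-receptor Lrp6 averaged 52.2 CPM over adult cells and 118 CPM over pregnancy cells, a log2 ratio of 1.05. Kremen1, a receptor of Dickkopf proteins, was at 79.0 and 47.4 CPM, a log2 ratio of -0.63. The log2 ratio of Lrp6 was 1.09 against marked and 0.99 against unmarked cells. That of Kremen1 was -0.02 and -1.20, where 1 unmarked cell was at 5227 CPM, and that of Trabd2b was -0.03 and 2.31.

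Of 19 Wnt ligands only Wnt5a reached that mean. It was at 18.1 CPM in marked, 112 CPM in unmarked and 117 CPM in pregnancy cells, so the pregnancy level was above that of the marked cells and close to that of the unmarked cells. Of 10 Frizzled receptors, Fzd3 (106.0 CPM in adult and 156 CPM in pregnancy cells) and Fzd7 (105.8 and 115 CPM) had this level, and neither differed 2-fold.

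The R-spondin arm, whose Lgr receptors strengthen Wnt signals, held the named gene of these lists with the largest difference. Lgr5 averaged 85.2 CPM over adult cells and 13.7 CPM over pregnancy cells, a log2 ratio of -2.004, and it reached 100 CPM in 22 of 139 and 3 of 71 cells. Its log2 ratio was -2.24 against marked and -1.59 against unmarked cells. Lgr4 reached 100 CPM in 115 adult and 65 pregnancy cells and averaged 663 CPM over the former and 1271 CPM over the latter, a log2 ratio of 0.93. Znrf3 and Rnf43, ligases that remove Frizzled receptors, had log2 ratios of -0.08 and -0.03.

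Of 10 genes known as Wnt targets, 6 reached a mean of 50 CPM in a group, of which 1 was 2-fold lower and 1 was 2-fold higher in pregnancy. Among all 4548 genes at that mean in either stage, 13.5% were at least 2-fold lower and 15.6% at least 2-fold higher. The counts of 1 in 6 are near these shares and show nothing particular to Wnt targets. Tcf7, a transcription factor of the pathway, averaged 58.2 CPM over adult cells and 13.9 CPM over pregnancy cells, a log2 ratio of -1.51. Nkd2 had a log2 ratio of 1.48, but 1 pregnancy cell at 4630 CPM set its mean. Ccnd1 (0.46), Myc (-0.07), Cd44 (0.17) and Bambi (0.30) differed less than 2-fold, and Axin2, a common reporter of Wnt activity, averaged 5.14 CPM over adult cells and 3.54 CPM over pregnancy cells. Some of these genes differed between the adult title sets more than between stages. The log2 ratio of pregnancy was 1.54 against marked and -0.56 against unmarked cells for Bambi, -0.60 and 1.33 for Myc, and 1.48 and -0.42 for Igfbp4.

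**Figure D5:**
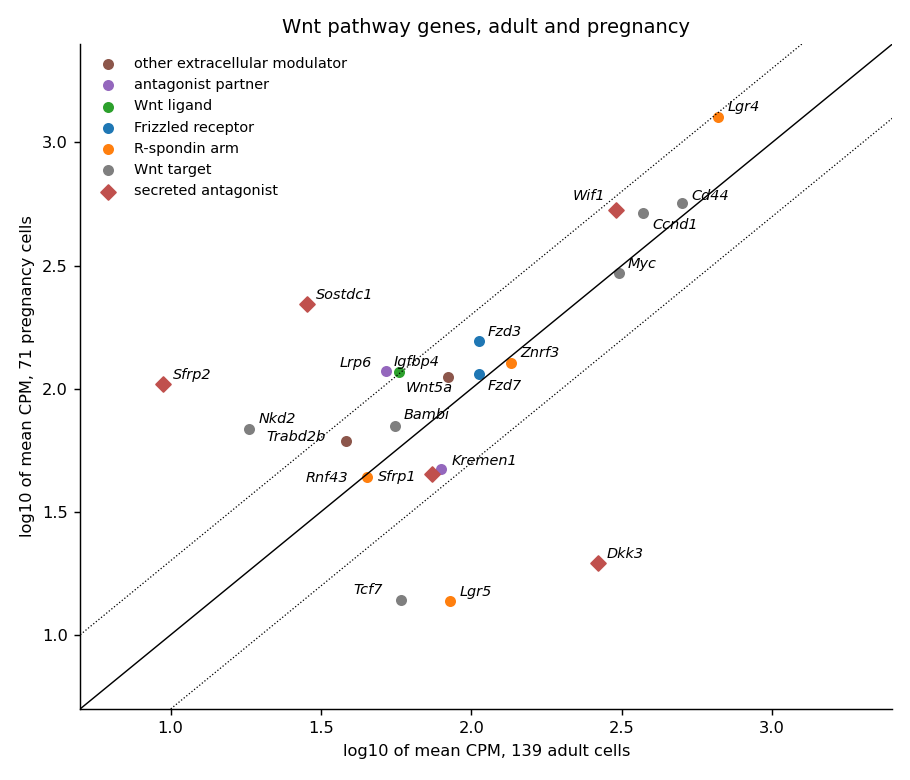
Mean CPM on log10 axes in the 139 adult cells (horizontal) and 71 pregnancy cells (vertical) of 5 antagonists (red diamonds) and of the Wnt pathway genes whose mean reached 50 CPM in a group (circles, coloured by list); the solid line marks equal means and the dotted lines 2-fold. Dkk3, Lgr5 and Tcf7 lie below the lower dotted line and Sostdc1, Sfrp2, Nkd2, Lrp6 and, barely, Wnt5a above the upper one, with no CPM added to the means; heights of different genes are not scaled to their length.

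Other measures moved with stage as well, and their part in these differences was not tested. The summed level of 8 fibroblast genes had a median of 4.55 CPM in adult cells (range 0 to 38176 CPM) and 561 CPM in pregnancy cells (55.2 to 5782 CPM). Most of the pregnancy level was Dcn, which was at 44.4 CPM or more in every pregnancy cell, while the other 7 genes summed to a median of 4.10 CPM there and 0 in adult cells. At least 3 of the 8 fibroblast genes reached 100 CPM in 3 adult and 3 pregnancy cells. Without these cells, the log2 ratio between pregnancy and adult cells was -3.21 for Dkk3, 2.40 for Sostdc1 and 2.65 for Sfrp2. At least 3 of 14 proliferation genes reached 100 CPM in 6 of 139 adult and 18 of 71 pregnancy cells. Summed pericyte genes had medians of 0 and 3.31 CPM, Schwann genes of 4.45 and 19.0 CPM, and endothelial and immune genes of 0 in both stages. At least 3 pericyte genes reached 100 CPM in 2 adult cells, and at least 3 immune genes in 1 adult cell. For both lists this was so in 0 pregnancy cells. The median mitochondrial share of reads was 9.65% in marked, 15.6% in unmarked and 18.4% in pregnancy cells.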

How the data were processed

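The authors deposited counts, as whole read pairs per Entrez gene for each cell, made by aligning to mm10 with Subread (version 1.5.0 per the submitters' processing notes) and counting with featureCounts and its built-in RefSeq genes. Libraries were made with Nextera XT, so PCR copies are counted and no molecular identifiers exist. Whether counting used the strand is not given in the sources used here. Gene symbols and promoter sequences came from RefSeq for GRCm38. Symbols were found for 25275 of 27179 identifiers, and the 1904 others held 1.66% of reads. After 15 mitochondrial and 124 ribosomal protein genes were left out, 25136 genes remained, over which CPM, thinning (seed 1) and filters were computed with Python 3.11.15, NumPy 2.4.6, pandas 2.3.3, SciPy 1.17.1 and Matplotlib 3.10.9. Retained cells had 51464 to 405910 assigned read pairs. No doublets were called or removed. Ratios are of mean CPM plus 10 CPM, and genes whose mean reached 50 CPM in either group form the background. This calculation was tested on simulated data with known changes. Simulated cells of a group differed only in depth and counting error, so the test does not cover single high cells such as those seen here. Shares carry exact Clopper-Pearson 95% intervals, and a share of 0 carries the limit of 3 counts. No test was run, since each group is 1 sample.

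The members, lists and comparisons were chosen with earlier results of these data known. Named genes were the 8 members, genes of the Wnt lists whose mean reached 50 CPM in a group, the 5 genes most correlated with a member that reached 100 CPM in at least 50% of a group's retained cells, and markers of other cell types in cells that held a member. Axin2, and the genes most like Dkk3 and Sostdc1, were added after their values were seen.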

Additional observations from a re-analysis of the deposited data

Results flagged for a closer look

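Reads of the antagonists also appeared in cells that the depth filter left out, which enter no comparison above. In the 31 marked cells left out there were 208 read pairs of Sostdc1, of which 94.7% came from 1 cell, 54 of Wif1, 34 of Dkk3, 9 of Sfrp2 and 8 of Sfrp1. The 67 unmarked cells left out held 120 read pairs of Dkk3, 63 of Wif1, 20 of Sfrp2, 16 of Sostdc1 and 11 of Sfrp1. The 4 pregnancy cells left out held 32 of Wif1, 8 of Sostdc1 and 4 of Sfrp1. Each of these counts is above the 3 that a count of 0 allows. With all cells included, the log2 ratio of pregnancy over adult cells was 1.28 for Sostdc1 and -2.92 for Dkk3.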

How the results depend on the processing

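The log2 ratio of Dkk3 between pregnancy and adult cells stayed below 0 in 16 alternatives and at least 2-fold lower in 15 of them. It was -2.96 at 100000 read pairs and 1500 genes, -2.92 with no cell filter, -3.69 with a pseudocount of 1 CPM, -1.60 with 100 CPM, -1.64 as a difference of mean log2 values and -2.88 from summed reads. Alternatives chosen after seeing the data took the unmarked cells numbered 113 to 175 alone (-0.77), those numbered 176 to 237 alone (-4.71), or all adult cells without the latter (-2.68). The share of cells with Dkk3 was 57.6% in adult and 26.8% in pregnancy cells at 10 CPM, 12.2% and 0% at 500 CPM, and 54.7% and 25.4% at 1 read after thinning. In the adult cells it was 15.8% over numbers 113 to 175 and 45.0% over 176 to 237. The 2 members at least 2-fold lower became 1 with a pseudocount of 100 CPM, with mean log2 values, against marked cells, without the highest cell of each group, against numbers 113 to 175, and without cells with 3 or more fibroblast genes. The 2 at least 2-fold higher became 1 with a pseudocount of 100 CPM, and 3 against unmarked cells or either of their number ranges. With mean log2 values there were still 2, but Wif1 (2.09) stood in place of Sfrp2 (0.90). At a limit of 1.5-fold both counts were 3. Sfrp4 turned direction against marked cells (0.025), against numbers 176 to 237 (0.032) and without fibroblast-gene cells (0.029), each of which leaves out its 1 high cell. Sostdc1 stayed at least 2-fold higher in 16 of 16 alternatives added after seeing the data (1.28 to 4.27) and Sfrp2 in 14 (0.90 to 3.33), while Wif1 ran from 0.55 to 2.09 (and was -0.016 against marked cells numbered 1 to 56, outside those alternatives) and Sfrp1 from -2.06 to 1.69. No paired analysis was possible because the numbers in the titles name single cells and no result comes from a test. Single animals cannot be told apart, so no spread between animals is known.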
